A study of Mus musculus with 9 samples.

Results

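The estrogen-related receptors (ERRs) Esrrg, Esrra and Esrrb and the PGC-1 coactivator genes Ppargc1a and Ppargc1b were followed across cultures of mouse duodenal mini-guts. They were taken by symbol, gave 5 of the 24505 genes of the transcription table, and all 5 passed the filter on low values that left 16563 genes for testing. The regions that carry their names in the histone mark tables were 30 of 35798 regions with more H3K27me3 in RANKL and 12 of 13607 with more in WENRC. Transcription was measured by GRO-seq (run-on sequencing of nuclei, in which polymerases already on the DNA extend labelled RNA, so that it reads transcription rather than stored RNA) in 3 cultures with 2 libraries each. Per the labels, the RANKL culture stands for the M cell of the gut lining, the ENRI culture for the enterocyte and the WENRC culture for the intestinal stem cell. The labels do not spell out these names, which are used here as they stand, and give no strain, genotype, age or sex. ENRI and WENRC were each grown from mouse 1 and mouse 2, and the RANKL libraries carry a number that is not tied to a mouse. H3K27me3, a histone mark set by Polycomb repressive complex PRC2 and found at repressed genes, was mapped by ChIP-seq in WENRC (1 library) and in RANKL, whose 2 libraries the authors pooled.

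ERRs are orphan nuclear receptors: they bind DNA and activate genes without a known natural hormone, and their activity is set largely by coregulator proteins. The coactivators PGC-1 alpha (Ppargc1a) and PGC-1 beta (Ppargc1b) dock on ERRs and on other factors to raise the transcription of genes of mitochondrial respiration, the citric acid cycle and fatty acid oxidation, processes on which absorptive epithelium draws. Esrra is broadly expressed in oxidative tissues including the intestine, Esrrg is known from heart, kidney, brain and the acid-secreting cells of the stomach, and Esrrb from pluripotent stem cells and the placenta.

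The start sites of Esrrg and Esrrb are shown first because regions of differing H3K27me3 that carry these gene names refer to them as the nearest starts. In the authors' H3K27me3 tables (mm9 coordinates) the Esrrg regions refer to 4 start sites, at 189432885, 189475637, 189476120 and 189821706 on chromosome 1, and the Esrrb regions to 2, at 87702067 and 87762594 on chromosome 12. The sequences are RefSeq promoter windows of the GRCm38.p6 build, matched by transcript and by spacing: Esrrg starts 2, 3 and 4 lay 42752, 43235 and 388821 bp from start 1 in both builds, and Esrrb start 2 lay 60527 bp from start 1. The 250 bases before each start are printed 5′ to 3′ on the plus strand, on which both genes lie, in lower case with every CG dinucleotide in capitals. They span chr1:187608756-187609005, chr1:187651508-187651757, chr1:187651991-187652240 and chr1:187997577-187997826 for Esrrg, and chr12:86360867-86361116 and chr12:86421394-86421643 for Esrrb.
Esrrg start 1: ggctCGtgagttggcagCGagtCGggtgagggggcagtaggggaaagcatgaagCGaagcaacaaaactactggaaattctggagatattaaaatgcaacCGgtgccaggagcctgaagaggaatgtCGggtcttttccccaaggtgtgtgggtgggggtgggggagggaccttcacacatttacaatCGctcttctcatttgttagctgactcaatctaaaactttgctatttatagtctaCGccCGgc
Esrrg start 2: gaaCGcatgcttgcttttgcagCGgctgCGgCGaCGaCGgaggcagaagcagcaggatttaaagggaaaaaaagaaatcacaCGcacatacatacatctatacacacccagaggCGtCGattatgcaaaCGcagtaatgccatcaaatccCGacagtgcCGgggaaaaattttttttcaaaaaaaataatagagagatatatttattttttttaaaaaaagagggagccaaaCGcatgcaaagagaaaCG
Esrrg start 3: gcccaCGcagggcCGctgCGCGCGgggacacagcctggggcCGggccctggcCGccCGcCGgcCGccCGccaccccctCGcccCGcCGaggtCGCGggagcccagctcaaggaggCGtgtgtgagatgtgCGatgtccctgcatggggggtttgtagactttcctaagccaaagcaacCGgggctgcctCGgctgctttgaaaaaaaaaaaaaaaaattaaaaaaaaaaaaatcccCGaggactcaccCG
Esrrg start 4: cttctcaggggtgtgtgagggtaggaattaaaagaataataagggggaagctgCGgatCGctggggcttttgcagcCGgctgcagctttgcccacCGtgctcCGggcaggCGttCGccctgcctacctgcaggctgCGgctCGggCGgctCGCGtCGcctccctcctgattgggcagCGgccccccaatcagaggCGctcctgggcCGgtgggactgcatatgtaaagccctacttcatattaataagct
Esrrb start 1: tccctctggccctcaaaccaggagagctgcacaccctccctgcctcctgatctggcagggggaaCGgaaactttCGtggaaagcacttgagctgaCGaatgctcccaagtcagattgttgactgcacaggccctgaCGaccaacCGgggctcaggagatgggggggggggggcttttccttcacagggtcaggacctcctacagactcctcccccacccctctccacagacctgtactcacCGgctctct
Esrrb start 2: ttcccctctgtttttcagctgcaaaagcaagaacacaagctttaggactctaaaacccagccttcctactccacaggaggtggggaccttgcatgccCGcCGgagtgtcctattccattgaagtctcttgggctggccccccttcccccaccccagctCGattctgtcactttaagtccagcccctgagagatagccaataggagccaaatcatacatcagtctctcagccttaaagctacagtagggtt

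In the whole windows, which run on to 50 bases after the start, CG occurred 15, 16, 22 and 19 times at the Esrrg starts and 7 times at each Esrrb start. The median of all 32851 windows of 300 bases was 7. The Esrra window held 25 and the Ppargc1a window 5. The ERR binding motif AAGGTCA, searched on both strands, was in none of these 8 windows and in 4.72% of all windows. The AP-1 motif TGANTCA was in the first Esrrg window, 42 bases before the start, and in none of the other 7 (7.81% of all windows). The kappaB motif (GGGA, any base, TTTCC), bound by the NF-kappaB factors that act downstream of RANKL, was in none of the 8 (0.411% of all windows).

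The cultures were checked against cell type markers. The summed linear level of 8 M cell markers was 6194 and 6511 in RANKL, 1834 and 482.7 in ENRI, and 1296 and 1287 in WENRC. The 14 enterocyte markers summed to 90831 and 153663 in ENRI against 10684 to 41154 elsewhere, and the 10 stem cell markers to 30949 and 32437 in WENRC, 26673 and 27713 in RANKL, and 12633 and 6817 in ENRI. Of 7 mesenchyme markers 6 were below a linear value of 10 in every library, and the 7 immune markers summed to 77.5 to 146 per library. Markers of the secretory lineages were also high in RANKL. The 8 Paneth markers summed to 3660 and 3472 there against 971 to 1734 elsewhere, the 8 tuft markers to 1157 and 1199 against 674 to 775, and the 10 enteroendocrine markers to 1635 and 2185 against 551 to 1190. The 8 goblet markers summed to 13056 and 12654 in RANKL, 14806 and 10287 in ENRI, and 3745 and 1856 in WENRC. Replicates lay closest in RANKL: over all tested genes, library 1 minus library 2 had an SD of 0.220 there, against 0.421 in WENRC and 0.699 in ENRI (log2). Per the file headers, RANKL reads came from a repeat of the sequencing whose reads were merged, unlike the others, and sequencing round and culture cannot be told apart. Y-linked Ddx3y was high in both mouse 1 libraries (8.50 in ENRI and 8.29 in WENRC) and low in the other 4 (3.28 to 3.60). Xist went the opposite way, with 4.52 and 5.42 in these mouse 1 libraries and 10.90 to 12.18 in the other 4. Sex, mouse and the date in the header thus cannot be told apart in ENRI and WENRC. Both RANKL libraries matched mouse 2 in these genes, while ENRI and WENRC each held both patterns. The comparisons with RANKL are not balanced for this, and its part in them was not tested.

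Esrrg was transcribed most in the RANKL culture. Its normalized log2 values were 14.02 and 14.12 in RANKL, 6.80 and 8.82 in ENRI, and 9.48 and 10.05 in WENRC. The cultures did not overlap, with RANKL highest in both libraries, WENRC between, and ENRI lowest and widest. The gene (NM_001243792, chromosome 1, 189432885 to 190038763, plus strand, mm9) spans 605878 bp. Its mean was 14.07 ± 0.07 in RANKL, 7.81 ± 1.43 in ENRI and 9.76 ± 0.40 in WENRC (SD, n = 2 libraries each). In a bulk measurement such as this, fewer cells of a type and less RNA made per cell cannot be told apart. The M cell markers moved with Esrrg between RANKL and the other cultures, but not within ENRI, where library 1 had the larger M cell marker sum and library 2 the larger Esrrg value. The Paneth, tuft and enteroendocrine sums were also highest in both RANKL libraries. Of the tested markers, 3 of 8 Paneth, 3 of 7 tuft and 1 of 8 enteroendocrine genes rose over ENRI. Over WENRC 3, 2 and 2 rose, as did 4 of 8 goblet genes. Of all tested genes, 20.9% were called against ENRI and 12.1% against WENRC, in either direction. The part of these markers in the result was not tested.

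The first comparison asked how M cell and enterocyte cultures differ. Esrrg rose by 6.26 on the log2 scale in RANKL over ENRI (SE 0.62, 95% interval 4.76 to 7.77, limma FDR 0.00347), or 76.9-fold. This was the 4th largest rise of all 16563 genes, and the 244th smallest p. In the authors' deposited table the log2 change was 6.63, with an adjusted p of 7.38e-25. With the 4 libraries compared alone Esrrg passed (limma FDR 0.0162, 11.6% of all genes called). Without RANKL 1 or RANKL 2 the change was 6.31 and 6.21. Esrrg was not called in these 2 fits, where few genes of the whole table were. They assume that the lone library varies like those of the other cultures. The change itself was 5.25 without ENRI 1 and 7.27 without ENRI 2.

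Against the stem cell culture, Esrrg rose by 4.31 in RANKL (SE 0.62, 95% interval 2.80 to 5.82, limma FDR 0.0121), or 19.8-fold, the 28th largest rise. The authors' deposited table gave 4.75 with an adjusted p of 1.53e-148. With the 4 libraries compared alone it passed (limma FDR 2.68e-05, 31.4% of all genes called). Leaving out RANKL 1, RANKL 2, WENRC 1 or WENRC 2 gave changes of 4.03 to 4.59. Esrrg was not called in these fits, where few or no genes of the whole table were. They assume that the lone library varies like those of the other cultures.

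Between the cultures grown from the same mice, Esrrg was 1.96 higher in WENRC than in ENRI (SE 0.62, 95% interval 0.45 to 3.46), which did not pass (limma FDR 0.0859). With the mouse as a block Esrrg passed in the fit of 6 libraries (limma FDR 0.0187), where the block covers ENRI and WENRC and leaves RANKL out. It did not pass in the 4 libraries that carry mouse labels alone (limma FDR 0.0820). The difference was 2.69 in mouse 1 and 1.23 in mouse 2, so both mice had the same direction. The authors' deposited table gave 1.89 with an adjusted p of 0.0498. Without ENRI 1 the difference was 0.95 (limma FDR 0.0153) and without ENRI 2 it was 2.97 (limma FDR 0.000624).

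**Figure D1:**
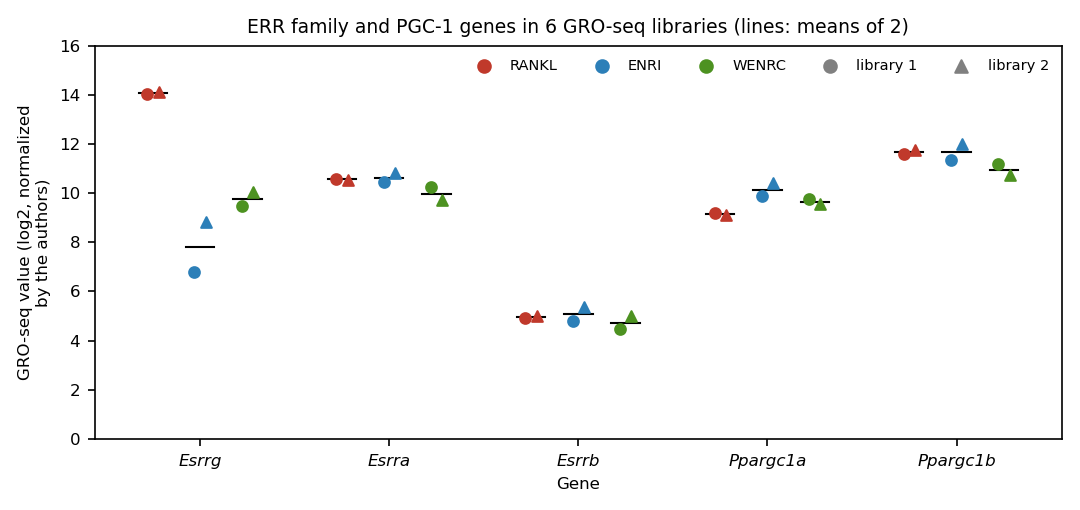
Normalized GRO-seq values (log2, as deposited) of the 5 genes in each of the 6 libraries, with lines at the culture means of 2 libraries. Esrrg ran from 6.80 in ENRI 1 to 14.12 in RANKL 2, while Esrrb stayed between 4.46 and 5.35.

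Esrra, the broadly expressed paralog, did not pass in any comparison of the 6-library fit. Its values were 10.57 and 10.53 in RANKL, 10.46 and 10.80 in ENRI, and 10.24 and 9.72 in WENRC. RANKL lay inside the ENRI range and above both WENRC libraries. The difference of RANKL and ENRI was -0.07 (95% interval -0.60 to 0.46, limma FDR 0.838). RANKL was 0.58 above WENRC (95% interval 0.05 to 1.10, limma FDR 0.142). The authors' deposited table gave 0.62 there, with an adjusted p of 0.0129, and a fit of the 4 libraries alone a limma FDR of 0.0397. WENRC was 0.65 below ENRI, a log2 difference of -0.65 (limma FDR 0.0979). The gene (NM_007953, chromosome 19, 6985467 to 6996298, minus strand) overlaps Mir6990 and, by 50 bp, Trmt112, from which its reads may not be separable.

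Esrrb stayed low in all 3 cultures. Its values were 4.93 and 4.99 in RANKL, 4.79 and 5.35 in ENRI, and 4.46 and 4.99 in WENRC, and the libraries overlapped in every comparison. The differences were -0.11 for RANKL minus ENRI (95% interval -0.80 to 0.58), 0.24 for RANKL minus WENRC (95% interval -0.45 to 0.93) and -0.35 for WENRC minus ENRI, with limma FDRs of 0.810, 0.632 and 0.455. The authors' deposited table gave larger changes of -0.35, 0.53 and -0.88, with adjusted p of 0.839, 0.738 and 0.674. Values this low lie where the deposited scale draws genes together, so fold changes there are understated. Esrrb (NM_001159500, chromosome 12, 87702067 to 87862578, plus strand) overlaps no other listed gene.

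Ppargc1a, the inducible coactivator that answers to fasting, cold and exercise in other tissues, went the opposite way to Esrrg. Its values were 9.20 and 9.13 in RANKL, 9.89 and 10.40 in ENRI, and 9.77 and 9.54 in WENRC. RANKL was lowest in both libraries and overlapped neither of the other cultures, and ENRI was highest. The gene, listed by its noncoding transcript NR_132764 (chromosome 5, 51845488 to 51958964, minus strand), fell by 0.98 in RANKL against ENRI (SE 0.20, 95% interval -1.47 to -0.49, limma FDR 0.0227), or 1.97-fold. In the authors' deposited table the change was -1.19, with an adjusted p of 0.00481. The call ended with the 4 libraries compared alone (limma FDR 0.0526, 11.6% of all genes called). It also ended without RANKL 1, RANKL 2, WENRC 1 or WENRC 2, with changes of -1.02, -0.95, -0.98 and -0.98. Without either RANKL library, few genes of the whole table were called. RANKL minus WENRC was -0.49 (limma FDR 0.171), where the authors' deposited table had -0.60 with an adjusted p of 0.0140. WENRC minus ENRI was also -0.49 (limma FDR 0.154).

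Ppargc1b, the coactivator paralog with a steadier basal expression in other tissues, had 11.58 and 11.73 in RANKL, 11.35 and 11.99 in ENRI, and 11.19 and 10.73 in WENRC. RANKL lay inside the ENRI range and above WENRC. The difference was -0.01 for RANKL minus ENRI (limma FDR 0.982), 0.70 for RANKL minus WENRC (95% interval 0.05 to 1.35, limma FDR 0.144) and -0.71 for WENRC minus ENRI (limma FDR 0.125). The authors' deposited table gave 0.76 for RANKL minus WENRC, with an adjusted p of 0.000153. The gene (NM_133249, chromosome 18, 61457790 to 61560085, minus strand) hosts Mir378a.

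Of the 5 genes, 2 were called in RANKL against ENRI (20.9% of all tested genes were), 1 in RANKL against WENRC (12.1% of all) and 0 in WENRC against ENRI (14.6% of all). In that last comparison 3 of 5 had an unadjusted limma p under 0.05 (32.5% of all did), and 1 was called with the replicate number as a block in the fit of 6 libraries (21.4% of all). Libraries did not overlap for 2 of the 5 in RANKL against ENRI (64.7% of all genes) and for 4 in each of the other comparisons (68.6% and 58.5% of all), so the absence of overlap alone was common. The authors' deposited table called 2, 4 and 1 of the 5, beside 19.6%, 27.8% and 12.5% of all. The comparisons share libraries, and each is given here with its own values. The 12.1% of RANKL against WENRC were mostly higher calls (70.2%), a share that was 58.7% after quantile normalization and 53.3% after recentring on upper quartiles. Under the latter, the median gene stood at -0.12 in place of -0.01. For WENRC against ENRI, 33.2% of calls were higher in WENRC, against 51.7% and 54.1% under these scalings. None of the 5 genes changed direction under either scaling. Without ENRI 1 or ENRI 2, Esrra, Ppargc1a and Ppargc1b were called in RANKL against WENRC (limma FDR 0.0175 to 0.0422), in fits that called 31.1% and 31.3% of all genes. Without ENRI 1 they were also called in WENRC against ENRI, at limma FDRs of 0.0202, 0.00719 and 0.00700, where 40.1% of all genes were called.

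**Figure D2:**
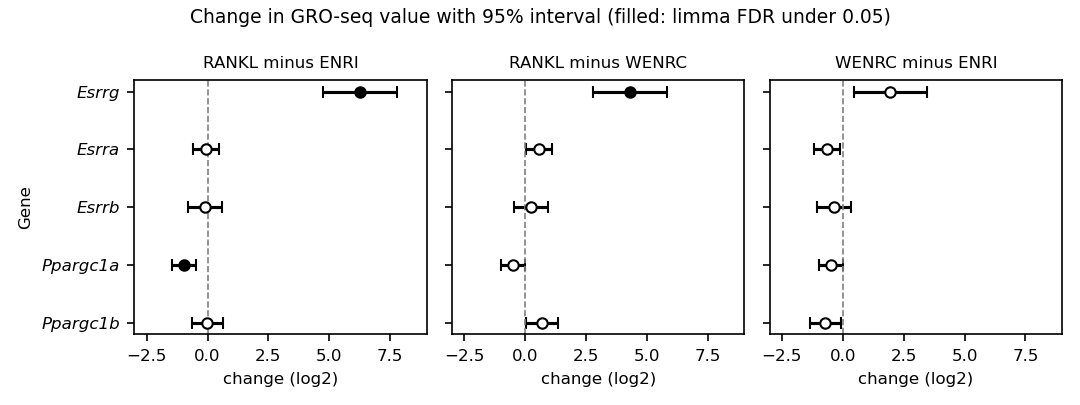
Change of each gene (log2) in the 3 comparisons with its 95% interval from limma, filled where the FDR was under 0.05. Esrrg was 6.26 and 4.31 higher in RANKL, Ppargc1a was lower in RANKL than in ENRI (-0.98), and the remaining 12 differences did not pass.

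Levels of different genes were compared per length, as the log2 value minus log2 of the gene length in kb. For Esrrg this is the whole length from start 1, and start 4 lies 388821 bp further on. Over a shorter transcribed part its level per kb would be higher, and which starts were used was not tested. Low values are also drawn together on the deposited scale. On this scale Esrra was the most transcribed of the 5 in every culture, at 7.12 in RANKL, 7.19 in ENRI and 6.54 in WENRC, above 95.4% to 97.1% of tested genes. In RANKL the order of levels per kb was Esrra, Ppargc1b (4.98), Esrrg (4.83), Ppargc1a (2.34) and Esrrb (-2.37). Ppargc1b and Esrrg differed there by 0.15, close to the SDs of 0.11 and 0.07, and no other neighbours in the order came within their spread. In ENRI the order was Esrra, Ppargc1b (4.99), Ppargc1a (3.32), Esrrg (-1.44) and Esrrb (-2.26), and the difference of 0.82 between the last pair was smaller than the SD of Esrrg, 1.43. In WENRC, Ppargc1b (4.28) and Ppargc1a (2.83) again stood above Esrrg (0.52), with Esrrb at -2.61, and no neighbours in the order were within their spread. The level of Esrrg per kb was thus above 75.4% of tested genes in RANKL, 7.58% in ENRI and 16.9% in WENRC. Per kb, Esrrg reached Esrra in no culture: it lay below it by a log2 difference of -2.29 in RANKL, -8.62 in ENRI and -6.02 in WENRC. The order in RANKL depended on the division by length. By the undivided value, Esrrg was above 99.9% of tested genes in RANKL and Esrra above 90.0%. In ENRI these shares were 51.5% and 90.9%, and in WENRC 83.8% and 86.7%.

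By the distance between library profiles after taking off each gene's own mean over the 6 libraries, the genes most like Esrrg were Pde1c (distance 1.07), Kcnb2 (1.09), Cap2 (1.19), Slc1a3 (1.38) and Rassf2 (1.55), followed by Trabd2b, Ncf4, Itgb8, Il31ra and Ccdc108 (1.98 to 2.14). Pde1c, a calcium-regulated phosphodiesterase gene, had 11.57 and 11.62 in RANKL, 5.39 and 7.34 in ENRI, and 7.46 and 7.77 in WENRC. Kcnb2, which encodes a voltage-gated potassium channel subunit, had 13.49 and 13.59, 7.11 and 9.01, and 8.83 and 9.13 in the same order. Both shared with Esrrg the lower value in ENRI 1 than in ENRI 2. Likeness here is over 6 libraries and 3 cultures, and a large distance between cultures sets most of it. The gene nearest to Esrra apart from Gm13807 (0.0972) was its chromosomal neighbour Prdx5 (0.145), a mitochondrial peroxiredoxin gene 1332 bp away. Nearest to the others were Gab3 for Esrrb (0.125), C920006O11Rik for Ppargc1a (0.109) and Pja1 for Ppargc1b (0.119).

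**Figure D3:**
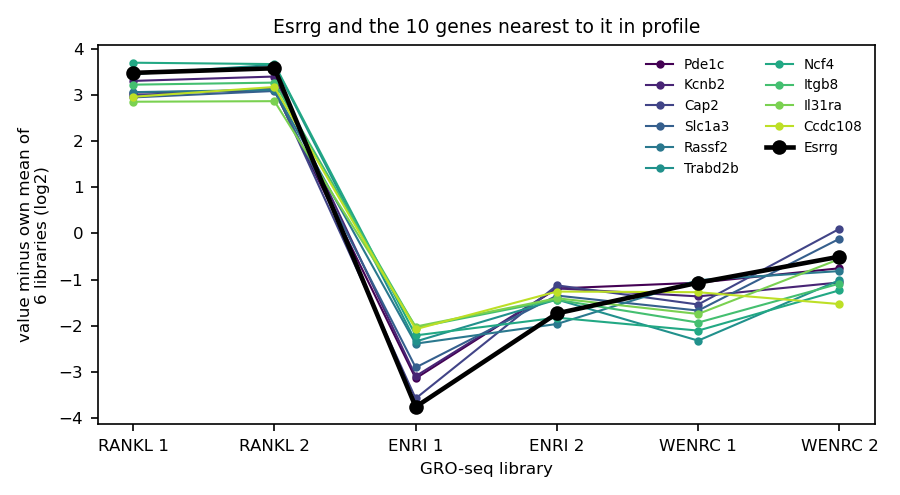
Values of Esrrg (black) and of the 10 genes nearest to it, each minus its own mean over the 6 libraries (log2), by library. All lines are high in RANKL, and the 10 distances run from 1.07 (Pde1c) to 2.14 (Ccdc108).

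A gene beside Esrrg and a gene inside it were also read. Gpatch2, 257577 bp away at lower coordinates, had 11.00 and 11.01 in RANKL, 11.13 and 11.40 in ENRI, and 10.44 and 10.10 in WENRC. Its log2 difference was -0.26 in RANKL against ENRI (limma FDR 0.335) and 0.73 against WENRC (limma FDR 0.0484). The noncoding gene 9330162B11Rik lies inside Esrrg on the other strand. It had 4.25 and 4.13 in RANKL, 3.12 and 3.05 in ENRI, and 3.319 and 3.259 in WENRC. Only the RANKL libraries reached log2 of 10, so the gene passed the filter through the culture where it was high. Its differences of 1.11 over ENRI and 0.90 over WENRC are thus given without a test. Strand handling is not given in the sources used here, so its reads and those of Esrrg may not be separable.

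H3K27me3 was lower at Esrrg in RANKL than in WENRC at every region that carried the gene's name. The authors' tables held 8 such regions with more of the mark in WENRC and 0 with more in RANKL. Of the 8, 7 lay inside the gene, and the region at the first start began before it and ran into it. Together they covered 6701 bp with 71 tags in RANKL (exact 95% Poisson interval 55.5 to 89.6) and 272.7 in WENRC after the authors' scaling to the RANKL depth of 32.7 M tags. The densities were 10.6 and 40.7 tags per kb, and the ratio was 3.84 (exact 95% interval 2.96 to 5.05, counting error only). The regions were selected by the authors for this difference, and no replicate check exists with pooled RANKL libraries and 1 WENRC library.

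The region with most tags covered start 1, from 189432344 to 189435399 (3055 bp). It held 36 tags in RANKL against 126 scaled tags in WENRC, an authors' fold of 3.5. Next to starts 2 and 3, the regions from 189475062 to 189475562 and from 189476222 to 189476722 had folds of 3.6 and 4.14. At start 4, 189819413 to 189819913 and 189821926 to 189822572 had folds of 3.15 and 3.6. The files annotate the region at start 1 to intron 1 of 7 of NM_001243792, the region at start 2 to a promoter, and the remaining 6 to introns. Each of the 4 starts whose sequences are printed above had a region within 5 kb. The largest folds were in introns between starts 3 and 4: 8.55 (2 against 17.1 tags, exact 95% interval 2.06 to 75.7), 5.7 (3 against 17.1 tags, interval 1.68 to 30.1) and 4.73 (4 against 18.9 tags). These are the regions with the fewest tags, so their folds are the least certain.

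Among tested genes, 5.01% had at least 1 region with more H3K27me3 in WENRC within 5 kb of a start, and 0.00604% (1 gene, Esrrg) had at least 5. At least 4 were found in 0.0362% (6 genes). Esrrg has 4 start sites, which gives it more such windows than a gene with 1. By number of regions wherever they lay, 169 of the 6082 genes with any region in that table had as many or more.

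Esrrb carried mostly regions of the opposite direction. There were 30 regions with more H3K27me3 in RANKL, 24 of them within the gene, and 2 with more in WENRC. The 30 covered 20284 bp with 992 tags in RANKL (exact 95% Poisson interval 931 to 1056) against 368.1 scaled tags in WENRC. The ratio was 2.69 (exact 95% interval 2.40 to 3.03, counting error only), and the folds ran from 2.02 to 5.28. The authors listed only regions with a fold of at least 2 in this direction, so a ratio above 2 was set in advance. As at Esrrg, no replicate check exists. Of the 30 regions, 5 lay within 5 kb of start 1 and none within 5 kb of start 2. Among the 5 was 87701565 to 87702065 just before start 1 (39 against 18 tags, fold 2.17). Among all tested genes, 0.242% had at least 5 RANKL-higher regions within 5 kb, and 18% had at least 1. The largest folds were 5.28 at 87668076 to 87668576, upstream of the gene, 4.67 at 87857536 to 87858036 and 4.28 at 87778611 to 87779111. The 2 regions with more in WENRC, at 87742202 to 87742702 and 87814238 to 87814738, had folds of 4.32 and 2.37. Of 8497 genes with any RANKL-higher region, 68 had as many or more. The transcription values of Esrrb overlapped between the same cultures.

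Ppargc1a was named by 2 WENRC-higher regions that lay 372945 and 199309 bp from its starts, with folds of 3.09 and 2.96 and 7 RANKL tags each. Esrra and Ppargc1b were named by no region in either table. The tables list differing regions only, so the level of the mark at these genes cannot be read from them.

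**Figure D4:**
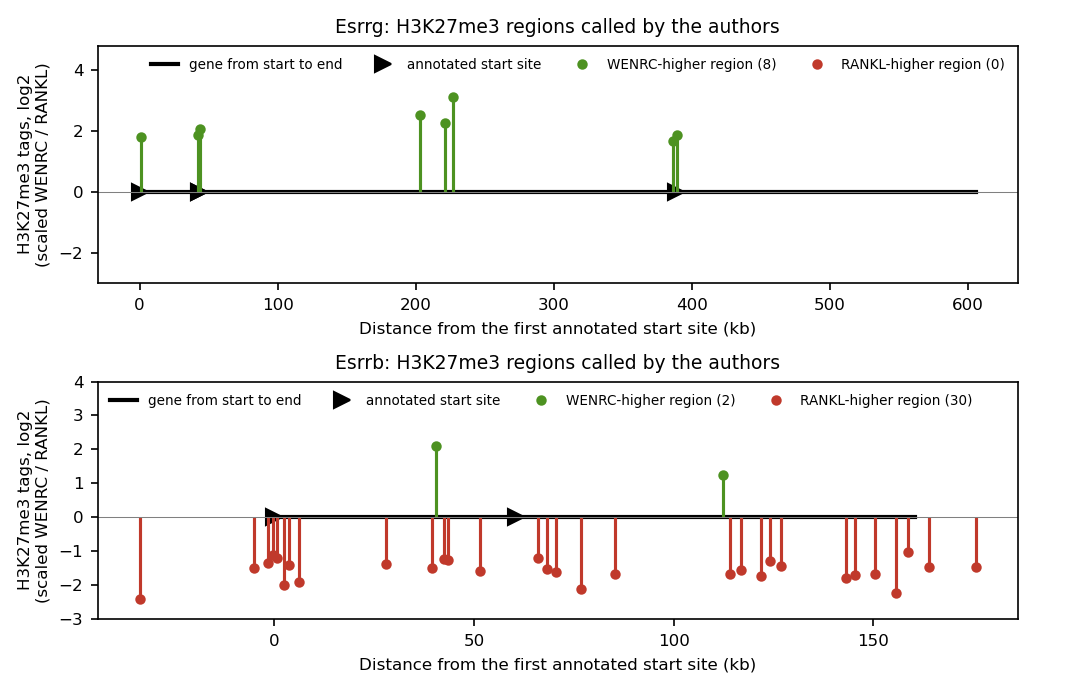
Authors' H3K27me3 regions along Esrrg and Esrrb by distance from the first start (kb), with the log2 ratio of scaled WENRC to RANKL tags (up: more in WENRC; down: more in RANKL). Esrrg has 8 regions up and 0 down, and Esrrb 2 up and 30 down.

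Other coregulators of ERRs included genes called in both directions. Of 17 tested genes (Nr0b1, a corepressor, was below the filter), 4 rose and 1 fell in RANKL against ENRI, beside 20.9% of all genes called, and the median change was 0.35 against -0.00 for all genes. Pprc1, a further PGC-1 family member, had 9.63 and 9.82 in RANKL, 8.57 and 8.02 in ENRI, and 9.48 and 9.46 in WENRC. It rose by 1.43 in RANKL and by 1.17 in WENRC over ENRI (limma FDR 0.00937 and 0.0217). The acetyltransferase gene Kat2a and the steroid receptor coactivator gene Ncoa3 rose by 0.81 and 0.78 over ENRI. Nrip1, which encodes the corepressor RIP140, fell by 0.85 in RANKL and by 1.15 in WENRC against ENRI (limma FDR 0.0333 and 0.0209). Against WENRC, 3 of 17 rose and none fell (12.1% of all genes called), among them Ncoa3 at 0.84 and the acetyltransferase gene Crebbp at 0.64. Under quantile normalization 0 of these 3 were called (13.1% of all genes), and with the 4 libraries compared alone the count was 7 of 17 (31.4% of all genes). Without any 1 RANKL or WENRC library none was called, in fits that called few or no genes of the whole table. The median change against WENRC was 0.30, and 0.15 and 0.19 after quantile normalization and upper-quartile recentring. Against ENRI, with the 4 libraries compared alone, 2 of 17 were called in RANKL (11.6% of all genes). Without RANKL 1 or RANKL 2 none was, in fits that called few genes of the whole table. Without ENRI 1 the count was larger, as was the share of all genes called.

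Among 20 upstream inputs and partner factors of PGC-1, Prkaa2, the alpha 2 catalytic subunit gene of the energy sensor AMPK, stood out with 11.35 and 11.38 in RANKL, 9.87 and 9.49 in ENRI, and 9.77 and 9.41 in WENRC. It rose by 1.69 over ENRI (limma FDR 0.00474) and by 1.78 over WENRC (limma FDR 0.00601), while its paralog Prkaa1 had differences of -0.00 and -0.02 (limma FDR 0.991 and 0.954). Ppara, the fatty acid receptor gene, had 9.49 and 9.52 in RANKL, 10.62 and 11.70 in ENRI, and 8.91 and 8.40 in WENRC. It fell by 1.66 in RANKL and by 2.51 in WENRC against ENRI (limma FDR 0.0275 and 0.0143). No other gene of the list was called against ENRI in either culture. Against WENRC, 5 of 20 rose in RANKL and none fell (12.1% of all genes called), the others being Mef2d (0.73), Crtc2 (0.76), Foxo1 (0.63) and Yy1 (0.58). The median of the list was 0.39, and 0.11 under quantile normalization with 3 calls. With the 4 libraries compared alone, and without ENRI 1 or ENRI 2, 11 of 20 were called, beside 31.4%, 31.1% and 31.3% of all genes. Without RANKL 1, RANKL 2, WENRC 1 or WENRC 2 few or no genes were called, in the list and in the whole table. Against ENRI, with the 4 libraries compared alone, 1 was called in RANKL (11.6% of all genes). Without RANKL 1 or RANKL 2 none was, in fits that called few genes of the whole table. Without ENRI 1 or ENRI 2 the count was larger, as was the share of all genes called.

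The 40 genes of energy metabolism that ERRs and PGC-1 are known to activate were called in both directions. In RANKL against ENRI 3 rose and 5 fell, a share close to the 20.9% of all genes called, with a median change of -0.27. The falls were in Cycs, the cytochrome c gene (-1.61), the malate dehydrogenase genes Mdh2 (-1.48) and Mdh1 (-1.35), the carnitine carrier gene Slc25a20 (-1.22) and Cpt1a (-1.05), which controls fatty acid entry into mitochondria. Cycs had 7.09 and 6.85 in RANKL, 8.22 and 8.95 in ENRI, and 7.63 and 7.69 in WENRC. Those that rose were Vegfa (1.19), an angiogenic factor, Idh3b (0.82) of the citric acid cycle and Ldhb (0.67), whose values of 3.09 to 3.85 were very low. Enterocyte markers moved the same way as the falls: 9 of 14 fell in RANKL and 13 of 14 in WENRC against ENRI. Of all genes, 20.9% and 14.6% were called in these comparisons. The part of the enterocyte markers in the result was not tested. Without RANKL 1 or RANKL 2, 0 of 40 were called (0.67% and 0.386% of all genes). Without ENRI 1 the count was 13 of 40, below the share of all genes called in that fit (42.1%).

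Against WENRC, 0 of the 40 passed in limma, 8 had an unadjusted p under 0.05 (29.3% of all genes did), and 5 were higher and 3 lower at an adjusted p under 0.05 by the authors' deposited test (27.8% of all genes called). The median change was 0.04, and -0.05 and -0.07 under the 2 scalings, each of which called 2 genes lower (13.1% and 14.1% of all genes called). With the 4 libraries compared alone, and without ENRI 1 or ENRI 2, 7 of 40 were called, beside 31.4%, 31.1% and 31.3% of all genes. In WENRC against ENRI 1 rose (Idh3b, 1.03) and 5 fell: Pdk4 (-1.89), which restrains pyruvate oxidation, Slc25a20 (-1.47), Mdh1 (-1.22), Cpt1a (-1.13) and Ogdh (-0.95). With the replicate number as a block in the fit of 6 libraries, 2 rose and 7 fell (21.4% of all genes called), and with the mouse as a block in the 4 libraries alone 0 of 40 were called (0.749% of all genes). In this comparison, fits without RANKL 1, RANKL 2, WENRC 1 or WENRC 2 called few or no genes of the whole table. Their lack of calls in the coregulator, PGC-1 and energy metabolism lists thus says nothing of these lists. Without ENRI 1, more genes were called in these lists and in the whole table.

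M cell genes were counted the same way for scale. Of 18 tested, 14 rose and none fell in RANKL against ENRI (median 3.07), beside 20.9% of all genes called. Against WENRC 13 rose and none fell (median 2.74), beside 12.1% of all genes called. Spib, a transcription factor needed for M cell maturation, rose by 4.45 and 4.02, and Gp2, a bacterial uptake receptor of M cells, by 5.46 and 5.62. Without RANKL 1 and RANKL 2 the counts were 7 and 5 against ENRI (0.67% and 0.386% of all genes), and 0 against WENRC, where 0 genes of the whole table were called. A region with more H3K27me3 in WENRC lay within 5 kb of a start in 6 of these 18 (Atoh8, Ccl9, Gp2, Icam1, Sox8 and Tnfaip2). It did so in 1 of 17 coregulators (Perm1), 1 of 20 inputs and partners (Ppara) and 1 of 40 energy metabolism genes (Fabp3), beside 5.01% of all tested genes. A region with more in RANKL lay as near in 1 of the 18 M cell genes (Tnfaip2, which thus had both), 2 of 17 coregulators (Crebbp and Prox1), 0 of 20 inputs and partners and 4 of 40 energy metabolism genes (Ldhb, Ndufs4, Pdha1 and Slc25a4), beside 18% of all tested genes. Esrrg had none of these.

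**Figure D5:**
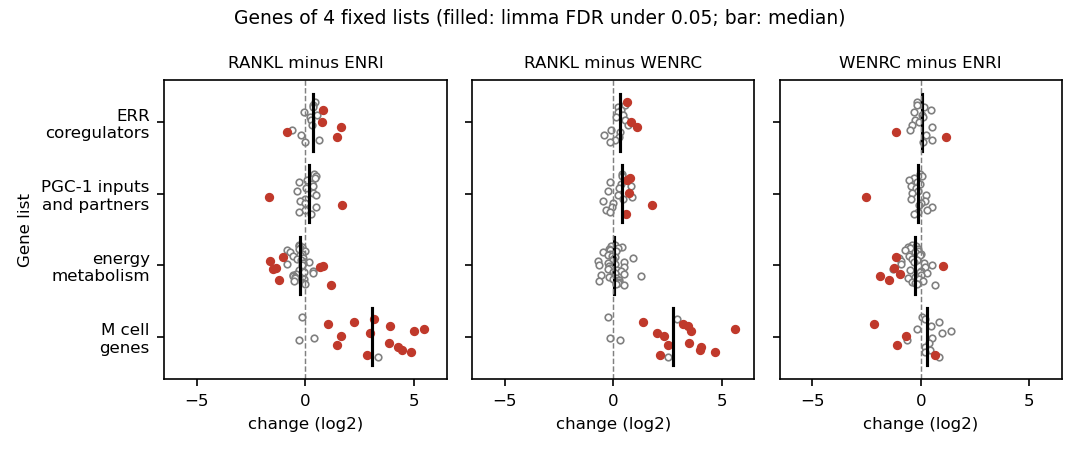
Change (log2) of each tested gene of 4 lists in the 3 comparisons, filled where the limma FDR was under 0.05, with a bar at the median. M cell genes had medians of 3.07 and 2.74 in the comparisons with RANKL, against 0.35 and 0.30 for ERR coregulators (0.15 in place of 0.30 after quantile normalization) and -0.27 and 0.04 for energy metabolism genes.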

How the data were processed

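GRO-seq values were deposited by the authors as normalized log2 values over whole RefSeq genes (mm9), counted with HOMER per the file headers; Bowtie2 2.3.4.1 and DESeq2 are named in the submitters' processing notes. The transform is not named and draws low values together. Depth is unknown, and strand handling is not given in the sources used here. Of 24505 genes, 2131 were at 0 in all libraries, and those with at least 2 libraries at or above log2 of 10 were tested (16563). limma 3.58.1 (R 4.3.3) with a variance trend was fitted to all 6 libraries with 3 culture means, two-sided, with Benjamini-Hochberg adjustment over all genes; FDR under 0.05 was a call. Replicates are separate libraries; for RANKL nothing says that they came from separate animals, so its p-values measure the spread between libraries, which may be technical. On simulated data for RANKL against ENRI (16563 genes, 200 changed) the fit recovered 23.9%, 95.5% and 100% of log2 changes of 1, 2 and 4, with 7.59% of calls false. The simulation gave a gene the same SD in every culture. In the data, replicate differences had SDs of 0.220 in RANKL and 0.699 in ENRI, and 20.9% of genes were called. These rates may thus not hold for the data.

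The labels give ENRI and WENRC the same mice, and their replicate deviations correlated across genes (r = 0.41); those of RANKL did not follow the numbers (r = -0.20 with ENRI and -0.32 with WENRC). The authors' deposited fold change (log2), p-value and adjusted p-value per pair were read with the sign turned to first minus second culture.

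H3K27me3 regions are HOMER peaks of one culture against the other, per the file headers, with RANKL libraries pooled. RANKL tags are whole counts as deposited. WENRC tags were scaled by 0.9 by the authors and are a signal; deposited normalized tag counts (a score per 10 M tags) gave the depth. The authors' fold (a ratio of tags) was at least 2 and their p-value at most 9.87e-05; 12 blank rows were dropped. Exact intervals cover counting error only.

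The 5 genes and all lists were chosen with earlier results of these data known. Of each list, up to 6 called genes with the smallest p were to be named per comparison, with the 10 genes nearest to Esrrg in profile and 3 for each other gene; the rest of the genes named, Prkaa1, Gpatch2, 9330162B11Rik and Ldhb and Idh3b among them, were picked after their values were seen. Some genes that the rule names are not reported here. Alternatives were the 4 libraries compared alone, the replicate block, 2 scalings, no filter, no variance trend, the authors' test, leaving out each library, a fold of 4 and other region assignments. A fit of the 4 ENRI and WENRC libraries with the block, and crossed RANKL numbers, were added after seeing the data.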

Additional observations from a re-analysis of the deposited data

How the results depend on the processing

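With 2 libraries a culture, the calls depended most on which libraries shared the fit. The total of called genes of the 4 lists is given with the genes called. For RANKL minus ENRI (3464 genes, list total 29) the 4 libraries compared alone gave 1925 genes and -0.98 for Ppargc1a (limma FDR 0.0526). Leaving out 1 library gave 64 to 6966 genes, a list total of 5 to 47, and changes of 5.25 to 7.27 for Esrrg, -1.24 to -0.73 for Ppargc1a, -0.33 to 0.31 for Ppargc1b, -0.24 to 0.10 for Esrra and -0.39 to 0.17 for Esrrb, the last 3 with a change of sign and no call. For RANKL minus WENRC (2012 genes, list total 21) the 4 libraries alone gave 5194 genes, a list total of 40, and calls for Esrra (0.58), Ppargc1a (-0.49) and Ppargc1b (0.70). The authors' deposited test gave 4604, 42, and calls for the same 3 (0.62, -0.60 and 0.76). Leaving out 1 library gave 0 to 5176 genes (2702 and 2486 at an unadjusted p under 0.05 where limma called 0), a list total of 0 to 40, and changes of 4.03 to 4.59 for Esrrg, 0.31 to 0.84 for Esrra, -0.61 to -0.38 for Ppargc1a, 0.47 to 0.93 for Ppargc1b and -0.029 to 0.50 for Esrrb. For WENRC minus ENRI (2416 genes, list total 13) the 4 libraries alone gave 0 genes (4074 at an unadjusted p under 0.05; 2076 in the authors' deposited test) and a list total of 0. With the mouse as a replicate block they gave 124 and 1, and Esrrg was not called (1.96, limma FDR 0.0820). In the fit of 6 the replicate block followed the mouse in ENRI and WENRC and left RANKL out. It gave 3545 genes, a list total of 20 and the call of Esrrg (1.96, limma FDR 0.0187). The authors' deposited test also made this call (1.89). Leaving out 1 library gave 0 to 6650 genes, a list total of 0 to 36, and changes of 0.95 to 2.97 for Esrrg, -0.91 to -0.39 for Esrra, -0.75 to -0.24 for Ppargc1a and -1.03 to -0.39 for Ppargc1b. The replicate block changed no other call of the 5 genes; with RANKL numbers it gave 2712 and 1465 genes, and with crossed RANKL numbers 3410 and 1784. The cause of these changes was not tested. Fits of fewer libraries have fewer degrees of freedom, and they called fewer genes in some cases and more in others. Replicate spread also differed between cultures, with SDs of 0.220 in RANKL, 0.421 in WENRC and 0.699 in ENRI.

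Of 30 RANKL-higher H3K27me3 regions, all at Esrrb, 3 had a fold of at least 4 and 5 lay within 5 kb of a start. Of 12 WENRC-higher regions the counts were 5 and 5: 4 and 5 of 8 at Esrrg, 1 and 0 of 2 at Esrrb, and 0 and 0 of 2 at Ppargc1a, where 0 overlapped the gene. GRO-seq depth is unknown and sets an unstated limit on low genes such as Esrrb; regions at Esrrg with 2 to 8 RANKL tags have wide counting intervals.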
